A study of Mus musculus with 60 samples.

Results

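Ventral hippocampus was compared with dorsal hippocampus in Homecage mice, the animals of the study that were not treated, in 10 of the 60 libraries of the series. Of these libraries, 5 came from ventral hippocampus of wild type C57BL/6 Homecage mice at postnatal day 105, and 5 from dorsal hippocampus of Homecage mice of the same strain, genotype and age. All 12 groups of the series share strain, genotype and age, and differ in region (whole, dorsal or ventral) and condition (Homecage, Handling, Restraint or Swim). RNA was enriched for poly(A) and sequenced on an Illumina instrument. The labels do not say whether a ventral and a dorsal library of the same number came from 1 mouse, and they do not say how the regions were divided. Members were all genes of the authors' deposited table for this pair of groups, which holds 13754 genes after repeated entries were dropped.

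The hippocampus is a folded sheet of cortex whose circuit runs from the dentate gyrus through CA3 and CA2 to CA1 and the subiculum along its whole length. Its dorsal end is connected mainly with areas that process spatial information and its ventral end with amygdala, hypothalamus and prefrontal cortex, and work in rodents ties the dorsal end to spatial memory and the ventral end to emotion and stress. The same cell types occur along the axis, with genes that are graded or switched between the poles.

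The files give the mean of each group and the authors' own test, with no value of a single library, so no spread between libraries stands beside a mean. The spread enters only through the authors' p-value, from which an approximate standard error was derived (the implied SE). Summed over genes, the mean estimated counts came to 25.0M in ventral and 23.4M (M, mega) in dorsal hippocampus. The means are not on the scale of the authors' fold change. The log2 ratio of the means lay above the deposited log2 by a median of 0.139. A gene such as Nr3c1 or Htr1a can thus have the larger mean in ventral hippocampus and a log2 below 0. A gene was called where the authors' adjusted p was under 0.05. In bulk tissue, fewer cells of a type and less RNA per cell cannot be told apart.

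Of the 13754 genes in the authors' deposited table, 5283 (38.4%) passed, 2532 higher in ventral hippocampus (18.4%) and 2751 lower (20%). Most differences were small. The median log2 fold change was 0.38 among genes called higher and -0.37 among those called lower, and the median implied SE over all genes was 0.0854. A log2 change of at least 1 was reached by 311 called genes on the higher side and 181 on the lower side, and one of at least 2 by 61 and 19 genes. The split depended on the scaling: with total-count scaling in place of the authors' scaling, which moves log2 values up by a median of 0.041, 3224 genes were higher and 2271 lower.

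**Figure D1:**
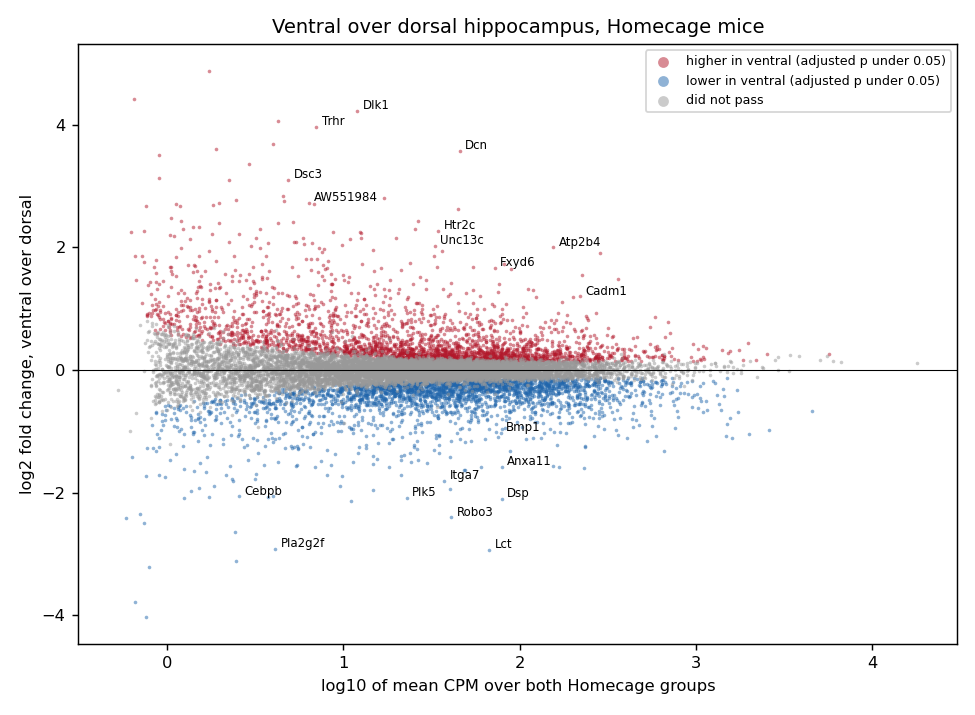
Each point is 1 gene, with the log10 of its mean CPM (the mean count as a part of the group total, scaled to 1M counts) over the ventral and dorsal Homecage groups on the x axis and the authors' log2 fold change, ventral over dorsal, on the y axis. Red genes were higher in ventral hippocampus, blue genes lower and grey genes did not pass. Genes range from -4.02 to 4.87; among the labelled ones, which have a smaller mean of at least 20 or a low p, Dlk1 and Trhr lie near 4, and Lct and Pla2g2f near -3.

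Dcn, the matrix proteoglycan decorin, was among the genes highest in ventral over dorsal hippocampus. It had a mean of 2121 estimated counts in ventral and 160.0 in dorsal hippocampus, and the authors' deposited table gives a log2 fold change of 3.57 (implied SE 0.144, adjusted p = 2.26e-132). Fxyd6, a regulator of the sodium pump, had the same adjusted p, with 2769 counts in ventral and 789.0 in dorsal hippocampus (log2 1.67 in the authors' deposited table). Timp2, an inhibitor of matrix metalloproteinases, averaged 11294 and 2747 estimated counts in ventral and dorsal hippocampus, by the authors' means. Dlk1, a Notch ligand relative expressed from the paternal allele, had 571.4 counts in ventral against 28 in dorsal hippocampus, the highest log2 fold change in the authors' deposited table (4.22, implied SE 0.196) among genes whose smaller mean was at least 20. Unc13c, a synaptic vesicle priming factor, Atp2b4, a calcium pump of the plasma membrane, and Cadm1, a synaptic adhesion molecule, were higher by log2 2.02, 2.00 and 1.20 in the authors' deposited table. Other large differences on this side were Dsc3, a desmosomal cadherin (3.10), the collagen gene Col23a1 (2.81), the retinoid receptor gene Rxrg (2.75) and Cbln1, a synapse organiser (2.70), all log2 values of the authors' deposited table.

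On the lower side, Epha7, an Eph receptor of axon guidance, had the lowest p, with 2122 estimated counts in ventral and 5808 in dorsal hippocampus (log2 -1.58, implied SE 0.0707, adjusted p = 4.91e-108 in the authors' deposited table). Lct, which encodes lactase, had 391.8 counts in ventral against 2770 in dorsal hippocampus, a log2 of -2.94 in the authors' deposited table. Pla2g2f, a secreted phospholipase gene, was close to it at -2.92 in the authors' deposited table, from means of 24.2 and 169.0 in ventral and dorsal hippocampus. Robo3, a receptor of commissural axons, fell by 2.40 and Itga7, a laminin-binding integrin, by 1.81 on the log2 scale of the authors' deposited table. Inf2, an actin-assembling formin, fell by 1.56, Anxa11, an annexin, by 1.58 and Bmp1, which processes procollagen, by 1.03 on the same scale of the authors' deposited table.

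Genes known as markers of the ventral pole were all higher in ventral hippocampus. Of 12 markers on the list, 12 were called higher and none lower, beside 18.4% of all genes called higher and 20% lower. The median log2 was 2.11 beside -0.01 over all genes, in the authors' deposited table. Trhr, the receptor of thyrotropin-releasing hormone, averaged 331.6 estimated counts in ventral and 19.4 in dorsal hippocampus (log2 3.96, adjusted p = 5.75e-102 in the authors' deposited table). Htr2c, a serotonin receptor, averaged 1435 and 272.6 counts in ventral and dorsal hippocampus, by the authors' means, and Nr2f2, the transcription factor COUP-TFII, 814.3 and 166.0. Calb2, the calcium-binding protein calretinin, and Grp, gastrin-releasing peptide, were higher by log2 2.43 and 2.24, while Coch (0.75) and Etv1 (0.86) had the smallest differences of the list in the authors' deposited table.

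The list of dorsal CA1 and dentate markers was mixed: 6 of 12 were lower in ventral hippocampus, 3 were higher and 3 did not pass (median log2 -0.23, authors' deposited table). These are 50% lower and 25% higher, beside 20% and 18.4% of all genes. Besides Lct, the lower members were Lefty1, a secreted inhibitor of Nodal signalling (-1.90), Wfs1, the wolframin gene (-0.77), Matn2 (-0.56), Spink8 (-0.52) and Ndst4 (-0.43), all from the authors' deposited table. Nov, a matricellular protein gene placed on this list, went the other way, with 4018 counts in ventral and 1465 in dorsal hippocampus (log2 1.32, adjusted p = 2.16e-52 in the authors' deposited table). Gsg1l (0.41) was also higher in the authors' deposited table, and Loxl1 (0.34), Prss12 (0.08) and Fibcd1 (-0.04) did not pass. With the trend of log2 fold change on transcript GC content subtracted, as described further on, Loxl1 (0.62) and Prss12 (0.21) were called higher. Both lists of pole markers were chosen with earlier results of these data known, so their counts are no independent check of the tissue labels.

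**Figure D2:**
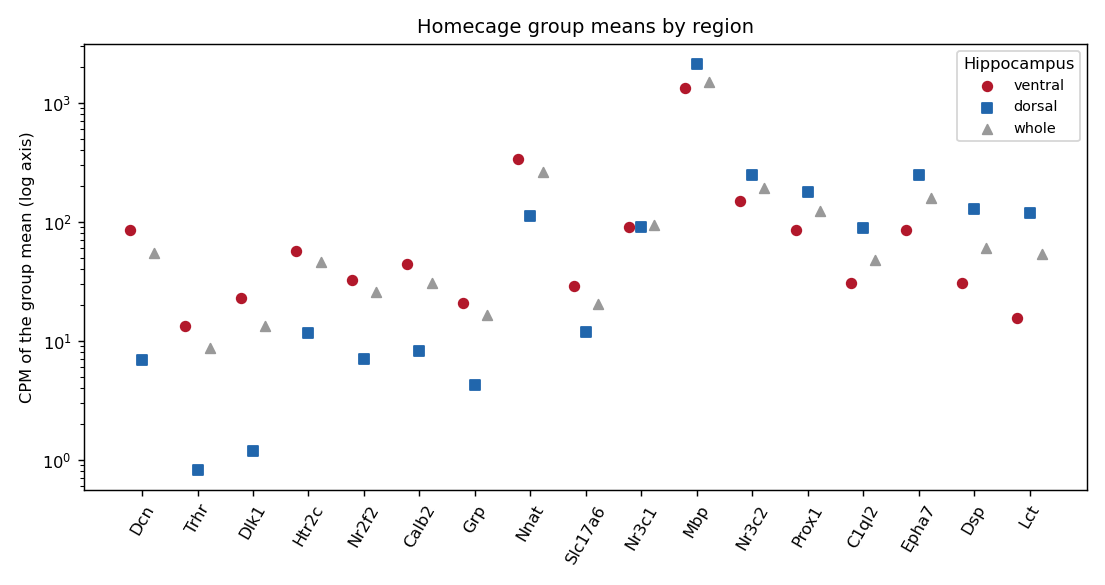
Group means of 17 genes in ventral (red circles), dorsal (blue squares) and whole (grey triangles) Homecage hippocampus, as CPM on a log axis; the means carry no spread because single libraries were not used. The genes on the left, from Dcn to Slc17a6, are higher in ventral, and those on the right, from Mbp to Lct, are lower, with Nr3c1 level between them.

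Markers of the dentate gyrus and of CA2 and CA3 were lower in the ventral libraries. Over all genes, 20% were called lower and 18.4% higher. All 12 dentate granule cell markers were called lower, with a median log2 of -0.99 and a summed level of 479 CPM in ventral and 947 CPM in dorsal hippocampus. Prox1, the transcription factor that specifies granule cells, averaged 2119 estimated counts in ventral and 4179 in dorsal hippocampus (log2 -1.12, adjusted p = 1.9e-31 in the authors' deposited table). Dsp, desmoplakin, had 765.8 counts in ventral against 2989 in dorsal hippocampus, and Plk5, a kinase, fell by 2.09 on the log2 scale of the authors' deposited table. Of the CA2 and CA3 markers, 9 of 12 were lower, 2 were higher (Necab2, 0.83, and Elavl2, 0.47) and Grik4 (0.12) did not pass in the authors' deposited table, though it was called higher with the GC trend subtracted (0.18) and with total-count scaling (0.16). The list's median was -1.05. Rgs14, a regulator of G protein signalling in CA2, fell by 1.12 and Iyd, iodotyrosine deiodinase, by 2.08 on the log2 scale of the authors' deposited table. Avpr1b, the vasopressin receptor of CA2, averaged 3.8 estimated counts in ventral and 33.4 in dorsal hippocampus, by the authors' means. CA1 markers were less one-sided, with 6 of 10 lower and 2 higher (median -0.30): Pou3f1, a POU factor, fell by 1.22 and Satb1, a chromatin organiser, was higher by 0.63 in the authors' deposited table.

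Subiculum markers went the other way: 8 of 10 were higher and 1 lower, with a median log2 of 0.68 and a summed level of 814 CPM in ventral and 424 CPM in dorsal hippocampus. Nnat, neuronatin, had 8437 counts in ventral and 2601 in dorsal hippocampus (log2 1.55 in the authors' deposited table). These are the largest means of the list in both regions, so Nnat weighs most in the summed level. Tshz2, a zinc-finger factor, was higher by 1.64 and Slc17a6, the vesicular glutamate transporter VGLUT2, by 1.25 in the authors' deposited table. Slc17a6 is on the thalamus list too, among the genes called higher there. Bcl6 fell by 0.65 and Ntng2 (-0.04) did not pass in the authors' deposited table. Lists of tissue that borders the hippocampus held calls in both directions, beside 18.4% of all genes called higher and 20% lower. Neocortex layer markers were higher for 7 and lower for 3 of 11 genes held, with a summed level of 413 CPM in ventral and 452 CPM in dorsal hippocampus, and Ctgf, a deep-layer marker, had a log2 of 2.13 in the authors' deposited table. Thalamus markers were higher for 4 and lower for 2 of 8 (137 CPM in ventral and 127 CPM in dorsal hippocampus), and striatum markers were also higher for 4 and lower for 2 of 8 (173 CPM in ventral and 185 CPM in dorsal hippocampus). Prkcd, on the thalamus list and the CA2 and CA3 list, fell by 1.36 in that table of the authors, and the thalamic factor gene Tcf7l2 (0.42) did not pass. The share of bordering tissue in the libraries was not tested.

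**Figure D3:**
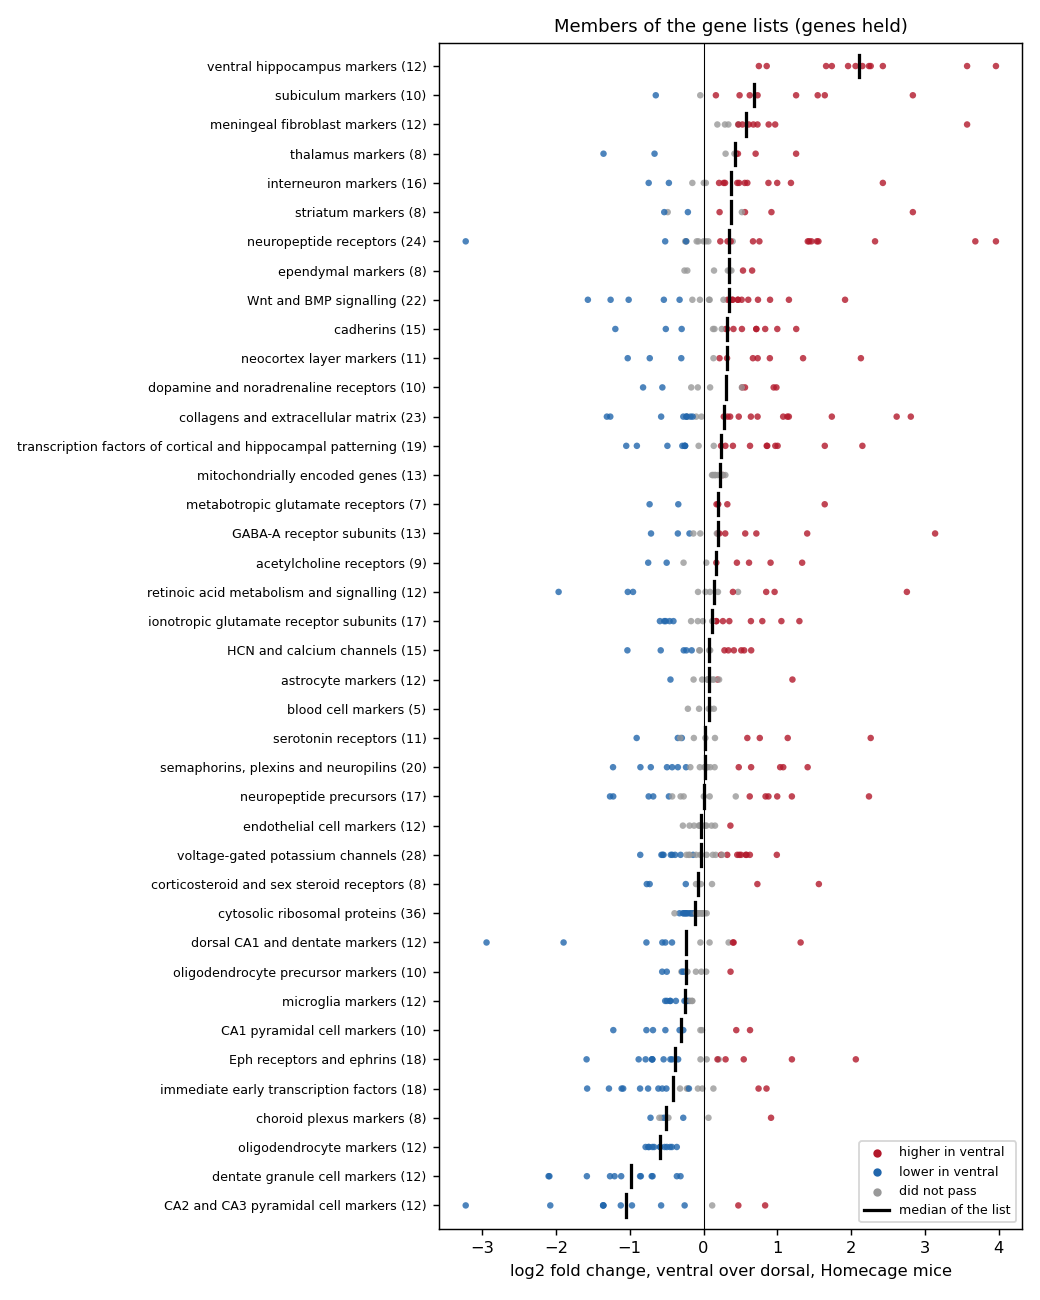
Each row is a gene list with the number of its genes held in parentheses, and each point is a gene at the authors' log2 fold change, ventral over dorsal, with red for higher, blue for lower and grey for genes that did not pass. Black bars are medians. The ventral markers stand at the top with a median of 2.11 and the CA2 and CA3 markers at the bottom with -1.05.

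Of the glial lists, read beside 18.4% of all genes called higher and 20% lower, the oligodendrocyte markers were lower throughout. All 12 were called lower in ventral hippocampus, with a median log2 of -0.59 and a summed level of 3214 CPM in ventral and 4765 CPM in dorsal hippocampus. Mbp, myelin basic protein, fell by 0.69 and Mag, myelin-associated glycoprotein, by 0.79 on the log2 scale of the authors' deposited table. The list of oligodendrocyte precursor markers had 4 lower and 1 higher of 10, but 1 lower and 2 higher with the GC trend subtracted, and 2 lower and 1 higher with total-count scaling. Pdgfra, the receptor that marks these cells, was higher by 0.37 in the authors' deposited table. Microglia markers were lower for 8 of 12 and higher for none (median -0.25), among them the complement genes C1qa (-0.46) and C1qb (-0.45) in the authors' deposited table. Both were still called lower with the GC trend subtracted, at -0.23 and -0.29. Astrocyte markers had 2 higher, 1 lower and 9 that did not pass: Agt, angiotensinogen, was higher by 1.20 and Gfap, an intermediate filament, fell by 0.45 in the authors' deposited table.

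Vessel, blood and border markers were measured in the same way, beside 18.4% of all genes called higher and 20% lower. Of 12 endothelial markers 1 was called, Kdr (0.36), and of 5 blood markers none was, with log2 values between -0.21 and 0.14 in the authors' deposited table. Meningeal fibroblast markers were higher for 8 of 12 and lower for none, with a median of 0.57 and a summed level of 599 CPM in ventral and 322 CPM in dorsal hippocampus. Most of the summed level in both regions came from Ptgds, a prostaglandin D synthase, with 9951 counts in ventral and 5530 in dorsal hippocampus. Dcn is on this list too, at 2121 and 160.0 counts. Slc22a6, an organic anion transporter, was higher by 0.88, Ptgds by 0.68 and Lum, the proteoglycan lumican, by 0.61 in the authors' deposited table. The 4 members that did not pass were Col1a1 (0.19), Col1a2 (0.47), Col3a1 (0.29) and Mgp (0.34), all above 0 in the authors' deposited table. The part of meningeal tissue in the level of Dcn was not tested. Choroid plexus markers were lower for 3 and higher for 1 of 8 genes held, and Ttr, transthyretin, which defines this tissue, did not pass (690.0 counts in ventral and 946.8 in dorsal hippocampus, log2 -0.60, in the authors' deposited table).

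Of 16 interneuron markers, 11 were higher in ventral hippocampus and 2 lower (median 0.37). These are 68.75% and 12.5%, beside 18.4% and 20% of all genes. Kit, a receptor tyrosine kinase, had 4308 counts in ventral and 1725 in dorsal hippocampus (log2 1.18, adjusted p = 6.92e-64 in the authors' deposited table), and Vip, vasoactive intestinal peptide, had 436.6 and 198.2. The GABA-synthesising enzymes Gad1 (0.21) and Gad2 (0.27) were higher by small amounts, Npy, neuropeptide Y, fell by 0.74 and Cck, cholecystokinin, by 0.47 in the authors' deposited table (Cck by 0.29 with the GC trend subtracted). Sst (0.00), Pvalb (0.03) and Slc32a1 (-0.15), which mark somatostatin cells, parvalbumin cells and all cells that release GABA, did not pass in the authors' deposited table.

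Peptide precursors were split between the poles. Of 17 held, 6 were higher and 5 lower (35.3% and 29.4%, beside 18.4% and 20% of all genes), with a median near 0. Besides Grp and Vip, the precursors Adcyap1 (1.20), Tac1 (0.88), Tac2 (0.84) and Nts (0.63) were higher in the authors' deposited table. The opioid precursors Penk and Pdyn fell by 1.22 and 1.27, and Bdnf, the neurotrophin kept on this list, fell by 0.68 in the authors' deposited table. Peptide receptors leaned to the ventral side, with 13 of 24 higher and 3 lower (54.2% and 12.5%, beside the same shares of all genes). Tacr3, the neurokinin B receptor, averaged 185.6 estimated counts in ventral and 13 in dorsal hippocampus (log2 3.68 in the authors' deposited table). Sstr1, a somatostatin receptor, was higher by 1.46, Oxtr, the oxytocin receptor, by 1.43 and Oprk1, the kappa opioid receptor, by 2.32 in the authors' deposited table.

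Among monoamine receptors, the serotonin receptor genes Htr2c, Htr7 (1.14), Htr5a (0.76) and Htr3a (0.59) were higher and Htr1f (-0.91), Htr5b (-0.35) and Htr4 (-0.29) lower in the authors' deposited table. Htr5b lost its call with the GC trend subtracted (-0.26), and Htr4 lost it with total-count scaling (-0.27). Htr1a, the inhibitory receptor of pyramidal cells, had 1131 counts in ventral and 1121 in dorsal hippocampus and did not pass (log2 -0.13 in the authors' deposited table), but was called lower with the GC trend subtracted (-0.16). Dopamine and noradrenaline receptors were higher for 4 and lower for 2 of 10 (40% and 20%, beside 18.4% and 20% of all genes). With the GC trend subtracted, 5 were higher and 1 lower. The adrenergic receptor genes Adra1a, Adra2a and Adra1b were higher by 0.99, 0.95 and 0.52 and Adra1d fell by 0.56, while the dopamine receptor gene Drd1 was higher by 0.56 and Drd5 fell by 0.82, in the authors' deposited table. Acetylcholine receptors were higher for 5 and lower for 2 of 9 (55.6% and 22.2%). The nicotinic subunit Chrna4 was higher by 0.91, and the muscarinic Chrm3 and Chrm1 fell by 0.75 and 0.50 in the authors' deposited table.

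Subunits of fast receptors and channels were divided in both directions, beside 18.4% of all genes called higher and 20% lower. GABA-A receptor subunits were higher for 7 and lower for 3 of 13, led by Gabra3 with 2793 counts in ventral and 958.6 in dorsal hippocampus (log2 1.40, adjusted p = 2.8e-92 in the authors' deposited table). With the GC trend described below subtracted, 4 of these subunits were higher and 5 lower. Ionotropic glutamate receptor genes were higher for 8 and lower for 5 of 17, and Grin3a, an NMDA receptor subunit, was higher by 1.30, Grik1 by 1.05 and Gria4 by 0.80 in the authors' deposited table. Grm8 was higher by 1.64 and Grm2 fell by 0.73 among the metabotropic receptors of the authors' deposited table. Voltage-gated potassium channels were higher for 9 and lower for 9 of 28 (32.1% each), with Kcnf1 at 0.99 in the authors' deposited table. Cacna1h, a T-type calcium channel, fell by 1.03 in the authors' deposited table.

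Guidance and adhesion molecules also differed in both directions, beside 18.4% of all genes called higher and 20% lower. Eph receptors and ephrins were higher for 5 and lower for 10 of 18. The receptors Epha4, Epha5 and Epha6 fell by 0.70, 0.54 and 0.88, while the ligands Efna5 and Efnb2 were higher by 2.06 and 1.20, in the authors' deposited table. Efna5 averaged 271.2 estimated counts in ventral and 58.8 in dorsal hippocampus, by the authors' means. Among semaphorins and their receptors, Plxnc1 was higher by 1.08 and Sema5a fell by 1.23 in the authors' deposited table. Cadherins were higher for 9 and lower for 3 of 15, with Cdh13 at 1.00 and Cdh24 at -1.19 in the authors' deposited table. Collagen and other matrix genes were higher for 12 and lower for 8 of 23, but lower for 5 with the GC trend subtracted or with total-count scaling. Col6a1 had 1923 counts in ventral against 285.0 in dorsal hippocampus (log2 2.62), and Acan, the perineuronal net proteoglycan aggrecan, fell by 1.31 in the authors' deposited table.

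Patterning genes and their signals were measured next, beside 18.4% of all genes called higher and 20% lower. Transcription factors of cortical and hippocampal patterning were higher for 10 and lower for 7 of 19. With the GC trend subtracted or with total-count scaling, 5 were lower. Meis2, a homeobox factor, was higher by 0.86 in the authors' deposited table. Wnt and BMP genes were higher for 12 and lower for 5 of 22, with the ligands Bmp3 (1.92) and Wnt4 (1.16) higher and Wnt2 (-1.57) and the BMP antagonist gene Grem1 (-1.26) lower in the authors' deposited table. In the retinoic acid group, 4 of 12 were higher and 3 lower (33.3% and 25%). Rxrg stood at 201.0 counts in ventral and 27.2 in dorsal hippocampus, while Cyp26b1, which breaks retinoic acid down, fell by 1.96 and Aldh1a1, a retinaldehyde dehydrogenase, by 1.03 in the authors' deposited table.

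Of the steroid receptors, the mineralocorticoid receptor gene Nr3c2 had 3733 counts in ventral and 5810 in dorsal hippocampus (log2 -0.77, implied SE 0.0698, adjusted p = 1.58e-26 in the authors' deposited table). The glucocorticoid receptor gene Nr3c1 had 2283 and 2134 counts in ventral and dorsal hippocampus and did not pass (log2 -0.04, implied SE 0.0693, in the authors' deposited table). Hsd11b1, the enzyme that regenerates active glucocorticoid, fell by 0.73, and the estrogen receptor gene Esr1 and the progesterone receptor gene Pgr were higher by 1.56 and 0.73 in the authors' deposited table.

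Immediate early transcription factors, which neurons switch on within minutes of activity, were lower for 10 and higher for 2 of 18 genes held (median -0.41). These are 55.6% and 11.1%, beside 20% and 18.4% of all genes. Egr1 averaged 1606 estimated counts in ventral and 2431 in dorsal hippocampus (log2 -0.75, adjusted p = 2.42e-12 in the authors' deposited table), and Egr3 fell by 1.11. Fosl2 and Nr4a2 were higher by 0.85 and 0.75, and Fos, with 138.8 counts in ventral and 132.2 in dorsal hippocampus, did not pass in the authors' deposited table. Arc, an effector gene of synaptic activity, had 1791 counts in ventral and 3128 in dorsal hippocampus (log2 -0.93 in the authors' deposited table). With the GC trend subtracted, 7 factors were lower and 2 higher, and the median was -0.18.

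Of these 7 factors, 5 have a promoter among those read from a RefSeq table (GRCm38.p6), of which not every chromosome was read. All 5 are shown because these genes were lower with and without the trend. They were chosen after their values were seen. Each line is 300 bases around the gene start on the gene's own strand. Capitals mark each TGACG or its reverse complement CGTCA, the half-site of the cAMP response element, so both strands were searched; in the full palindrome the pair would overlap. A match was present in 20.8% of the 32851 promoters read. The median GC content was 52.7% over all those promoters and between 64.7% and 72.3% in these 5. Letters that match are a description of the sequence and not evidence of binding.

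Atf3 (chr1:191183284-191183583, minus strand): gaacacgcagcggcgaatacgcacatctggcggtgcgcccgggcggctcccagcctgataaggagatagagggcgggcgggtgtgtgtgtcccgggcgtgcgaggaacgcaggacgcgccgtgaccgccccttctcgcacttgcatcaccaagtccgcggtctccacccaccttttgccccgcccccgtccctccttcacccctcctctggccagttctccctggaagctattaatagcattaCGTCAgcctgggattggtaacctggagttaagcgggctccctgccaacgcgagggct
Egr4 (chr6:85513540-85513839, minus strand): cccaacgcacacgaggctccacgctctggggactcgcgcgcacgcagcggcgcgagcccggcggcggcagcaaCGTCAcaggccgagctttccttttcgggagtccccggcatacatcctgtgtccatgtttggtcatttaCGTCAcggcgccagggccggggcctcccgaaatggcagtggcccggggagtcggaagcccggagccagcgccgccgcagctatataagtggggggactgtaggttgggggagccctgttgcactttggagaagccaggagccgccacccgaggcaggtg
Junb (chr8:84978699-84978998, minus strand): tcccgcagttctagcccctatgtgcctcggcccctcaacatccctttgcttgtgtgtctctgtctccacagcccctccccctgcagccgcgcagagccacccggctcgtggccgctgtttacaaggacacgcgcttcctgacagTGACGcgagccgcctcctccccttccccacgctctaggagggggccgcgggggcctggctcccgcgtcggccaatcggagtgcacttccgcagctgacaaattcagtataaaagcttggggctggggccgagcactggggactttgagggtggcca
Npas4 (chr19:4989922-4990221, minus strand): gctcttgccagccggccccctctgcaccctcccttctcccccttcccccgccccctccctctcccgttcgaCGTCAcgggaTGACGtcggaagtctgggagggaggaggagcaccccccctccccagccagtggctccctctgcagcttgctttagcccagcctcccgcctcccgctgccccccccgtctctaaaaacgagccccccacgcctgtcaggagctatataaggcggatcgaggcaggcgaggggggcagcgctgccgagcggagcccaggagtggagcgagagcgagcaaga
Nr4a1 (chr15:101266596-101266895, plus strand): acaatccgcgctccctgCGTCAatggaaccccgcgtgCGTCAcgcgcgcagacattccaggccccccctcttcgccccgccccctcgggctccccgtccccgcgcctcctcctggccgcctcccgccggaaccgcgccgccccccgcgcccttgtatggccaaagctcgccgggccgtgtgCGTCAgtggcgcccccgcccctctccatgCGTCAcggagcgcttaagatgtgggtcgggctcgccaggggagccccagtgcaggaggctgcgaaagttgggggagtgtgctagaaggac

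Egr4 holds 2 matches and fell by 1.58 on the log2 scale of the authors' deposited table, from means of 89.8 counts in ventral and 239.0 in dorsal hippocampus; with the GC trend subtracted it fell by 1.04. Junb, with 1 match, fell by 1.09, Npas4, with 2, by 0.61, Nr4a1, with 4, by 0.56 and Atf3, with 1, by 1.28 in the authors' deposited table. Atf3 was near the lower end of the table, at 12.2 counts in ventral and 27.4 in dorsal hippocampus.

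The ventral to dorsal ratio was also computed from group means of Handling, Restraint and Swim mice, which are other libraries, as log2 of CPM with 0.5 added. Those tables were normalized separately, so these ratios are a description with no test. Of the genes called higher in Homecage mice, 99.5% lay above 0 in Handling, 97.4% in Restraint and 92.0% in Swim mice, beside 57.6%, 55.0% and 53.5% of all genes. Of those called lower, 94.2%, 86.6% and 76.4% lay below 0 in the same order of conditions, beside 42.4%, 45.0% and 46.5% of all genes. Among called genes with a ratio in all 3 conditions, 2162 of 2396 called higher (90.2%) had the Homecage direction in each. The same held for 1980 of 2703 called lower (73.3%). Of all genes, 38.6% lay above 0 in all 3 conditions and 28.7% below 0. Called genes that lack a mean for a region, such as Tacr3 and Avpr1b, are not in these counts. Dentate granule markers had medians of -0.99, -0.74 and -0.92 and oligodendrocyte markers -0.44, -0.52 and -0.71 in Handling, Restraint and Swim mice. The CA2 and CA3 markers had medians of -0.71, -0.43 and -0.48 over 11 genes, without Avpr1b, which has no ventral mean in these conditions. Their Homecage median of -1.05 is of the authors' log2 over 12 genes. It differs from the others in measure and in genes, so the sizes cannot be compared directly. The median of the early factors was -0.13 in Handling mice and above 0 in Restraint (0.21) and Swim mice (0.23). Choroid plexus markers had medians of 1.92, -2.34 and -0.46, and Ttr stood at 3.70, -5.10 and -0.60. Ttr averaged 28299 counts in ventral and 2161 in dorsal Handling mice, and 880 in ventral and 28300 in dorsal Restraint mice. Without values per library, how many libraries carry these means is not known, and an effect of the condition was not tested.

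**Figure D4:**
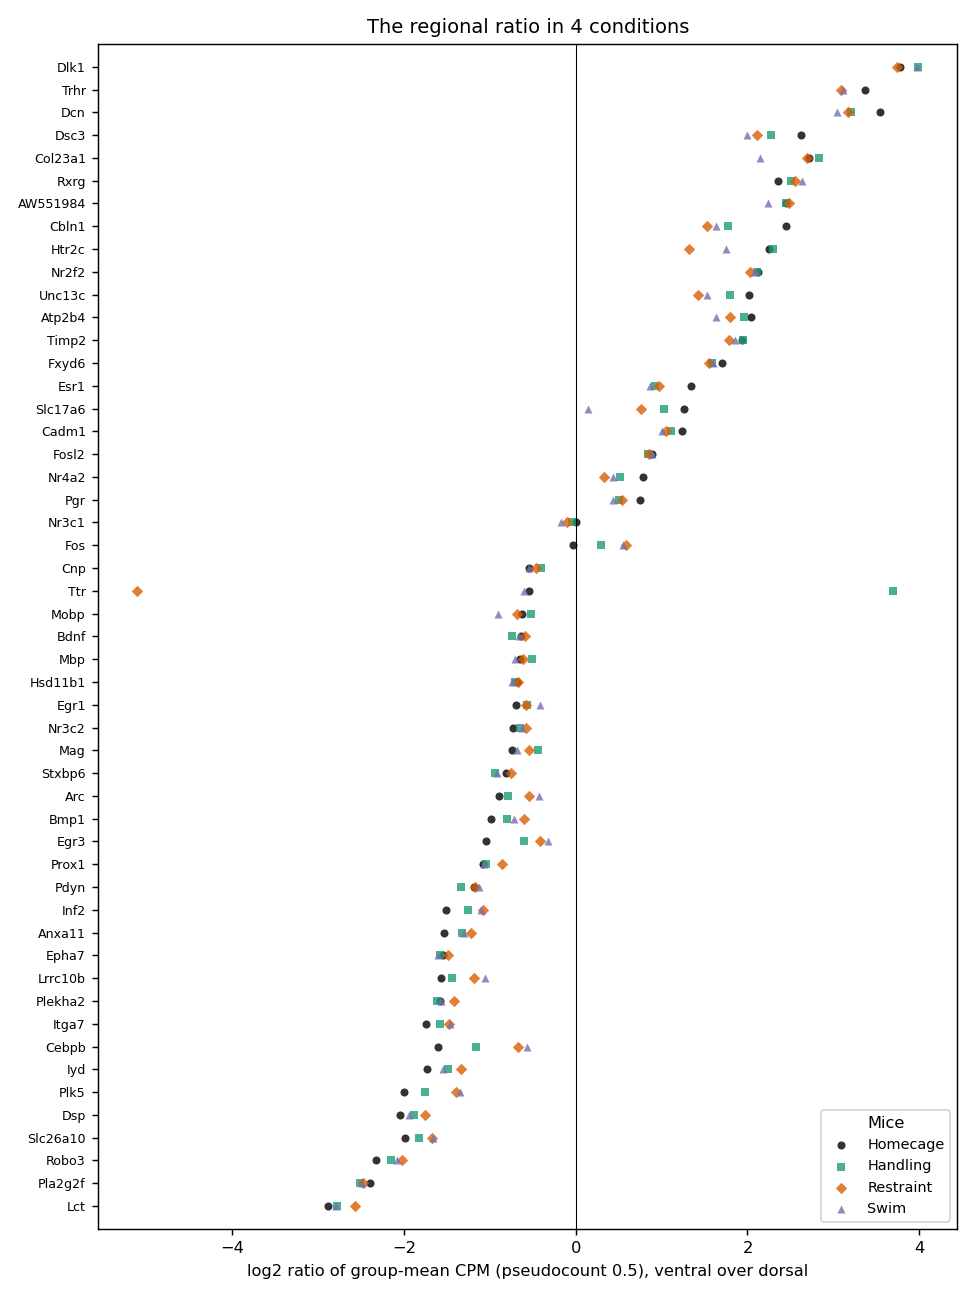
The log2 ratio of group-mean CPM, ventral over dorsal, for named genes (rows) in Homecage (black circles), Handling (green squares), Restraint (orange diamonds) and Swim (purple triangles) mice, with 0.5 CPM added. Dlk1, Dcn and Lct keep their side of 0 in all 4 conditions, whereas Ttr ranges from -5.10 to 3.70 and Fos crosses 0.

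Whole Homecage hippocampus lay between the regions for 3567 of 5240 called genes (68.1%), for 461 of 468 with a log2 change of at least 1 (98.5%), and for 2132 of 8418 genes that were not called (25.3%). These shares depend on the gap between the regions, by which the genes were selected, so their contrast is no separate result. Dcn stood at 84.8 CPM in ventral, 6.85 CPM in dorsal and 54.9 CPM in whole hippocampus.

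The log2 fold change followed the GC content of the gene's transcripts. Across 13724 genes, which are not independent replicates, Spearman's rho was -0.36 in Homecage mice, against -0.08, -0.01 and 0.28 for the ratios in Handling, Restraint and Swim mice. In the fifth of genes lowest in GC, 730 were called higher and 187 lower, and in the fifth highest in GC 266 were higher and 1108 lower. Subtracting the trend left 2431 genes higher and 1983 lower. Of the original calls, 3747 kept their direction, 1526 were lost and 2 turned round. The ventral markers (12 of 12 higher), dentate granule markers (12 of 12 lower) and oligodendrocyte markers (12 of 12 lower) had the same counts after it. Other lists moved. The CA2 and CA3 median went from -1.05 to -0.82. Eph receptors and ephrins went from 5 higher and 10 lower to 7 and 9, and their median from -0.38 to -0.22. Of 7 metabotropic glutamate receptors, 2 were higher after it in place of 4. GC content as a cause of any of the differences was not tested.

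**Figure D5:**
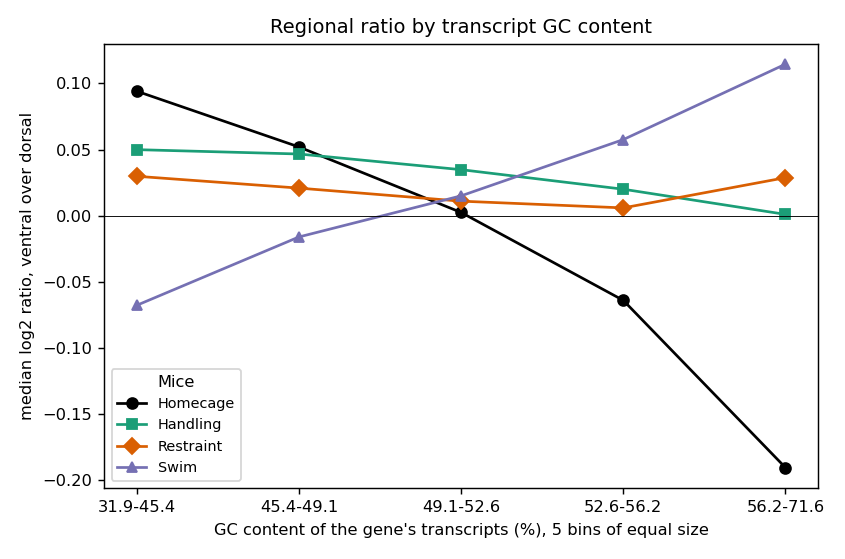
Median log2 ratio, ventral over dorsal, in 5 bins of genes by the GC content of their transcripts, for Homecage mice (the authors' log2 fold change) and for Handling, Restraint and Swim mice (ratio of group-mean CPM). The Homecage line falls to -0.19 in the bin highest in GC, where the Swim line is at 0.11.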

How the data were processed

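Poly(A)-enriched RNA was sequenced in 60 libraries, of which 10 enter the comparison. The deposited tables hold mean estimated counts of each group, per the file headers, with no value per library. Fold changes and log2 fold changes were deposited as ventral over dorsal on the scale the authors set. Each deposited p-value, raw or adjusted, is from a test by the authors; its model, and the counting program, were not given in the sources used here. Bowtie 0.12.2 and the assembly mm8 appear, with no step, per the submitters' processing notes. The deposited adjusted p matched a Benjamini-Hochberg adjustment over all 13901 entries, of which 147 repeats were dropped. The smallest sum of both means was 25.6, so lower genes are not analysed here.

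Calls are the authors' adjusted p under 0.05. A plan for count tests was replaced by these calls because the deposited tables hold group means. The implied standard error divides the size of the log2 fold change by the normal deviate that its p-value corresponds to, and is approximate. CPM was computed from group means over the genes held. The GC trend was a lowess fit (fraction 0.3, statsmodels 0.14.6) on mean transcript GC content from GENCODE M21, with a value for 99.8% of genes; the errors were kept and the adjustment was rerun. The procedure was tested on simulated data with few changed genes, placed without regard to GC content. That setting cannot show whether real differences that follow GC content survive the subtraction. The series record gives 5 mice per condition; no label ties a library to a mouse, so the p-values measure the spread between these libraries.

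Genes were named by rule: the 10 with the lowest adjusted p and the 8 with the largest fold in each direction (smaller mean at least 20), all dorsal and ventral markers, up to 4 per other list, and 8 fixed genes. Other list members named in the text fall outside this rule (such as Junb, Egr4, Npas4, Nr4a1, Atf3, Avpr1b, Tac1 and Htr1a) and were picked with their values in view. The members and the 40 lists, with 525 of 560 genes held, were chosen with earlier results of these data known. Promoters were read from a RefSeq table (GRCm38.p6), though not for every chromosome. Some genes are not reported here.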

Additional observations from a re-analysis of the deposited data

How the results depend on the processing

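The authors' calls were recomputed with other settings. An adjusted p under 0.01 left 1848 genes higher and 2062 lower in ventral hippocampus, adjustment over unique genes 2534 and 2753, a mean of at least 100 estimated counts 2127 and 2535, and leaving out the lists of neighbouring tissue 2507 and 2743. Requiring a fold of at least 1.5 left 1372 genes, 763 higher and 609 lower. Total-count scaling changed the share of higher calls from 47.9% to 58.7%, and subtracting the GC trend changed it to 55.1%. With total-count scaling, 2 of 12 endothelial, 6 of 12 astrocyte, 3 of 10 oligodendrocyte precursor, 5 of 36 ribosomal and 3 of 13 mitochondrially encoded genes passed. Of all 13754 genes, 3224 were higher and 2271 lower with that scaling. With the GC trend subtracted, 5 of 12 astrocyte, 3 of 10 oligodendrocyte precursor and 0 of 13 mitochondrially encoded genes passed. Of the 13724 genes with a GC content, 2431 were higher and 1983 lower with the trend subtracted. The oligodendrocyte precursor genes were then 2 higher and 1 lower. The cause of these shifts was not tested. Of 186 named genes, 176 kept their side of the threshold with the GC trend subtracted and 180 with total-count scaling. None of the named genes that passed changed sign under either. Many of them were named for a low adjusted p or a large fold, so these counts do not describe the other genes. Over all genes, 3747 calls kept their direction with the GC trend subtracted and 1526 were lost. No paired analysis was possible because the tables hold group means and no values per library, so the replicate block and leaving out each library were not run. Depth limits genes of low count: the lowest called means, such as those of Avpr1b, rest on a few counts per library.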

Other observations

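Housekeeping genes differed little one by one, but each group leaned to 1 side. In the authors' deposited table, log2 ran from -0.39 to 0.04 in ribosomal and from 0.11 to 0.30 in mitochondrially encoded genes. Of 36 cytosolic ribosomal protein genes, 10 were lower (27.8%, beside 20% of all genes) and none higher in ventral hippocampus, with a median log2 of -0.11, and Rpl13 fell by 0.33 in the authors' deposited table. Of 13 mitochondrially encoded genes, mt-Co3 alone was called (0.26 in the authors' deposited table; none with the GC trend subtracted), and the summed level was 62581 CPM in ventral and 54243 CPM in dorsal hippocampus, beside 84290 CPM in whole hippocampus. Ependymal markers were higher for 2 of 8 genes held (25%, beside 18.4% of all genes), Rsph1 (0.66) and Ak7 (0.53), and the ciliary master factor gene Foxj1 (-0.22) did not pass in the authors' deposited table.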
